A study of Mus musculus with 12 samples.

Results

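The 9 genes described here, *Runx1*, *Gadd45a*, *Hdac4*, *Hdac5*, *Hdac9*, *Dach2*, *Mef2a*, *Mef2c* and *Mef2d*, were chosen by name, as regulators that connect nerve activity to gene expression in skeletal muscle, and were matched by their NCBI Gene IDs to 9 of the 27179 genes counted. All 9 passed the filter on low counts that left 15502 genes for testing. They were measured by RNA-seq of polyA RNA in 12 tibialis anterior (TA) muscles from 6 wild-type male C57BL/6N mice, obtained between 6 and 8 weeks of age. In each mouse, 1 TA was electroporated with 10 μg of empty pcDNA3 plasmid (Control muscles, n = 6) and the other with 10 μg of a plasmid that expressed full-length human *FRAIL1*, a lncRNA, from the CMV promoter (*FRAIL1* muscles, n = 6), and both were collected at day 7. All 12 muscles therefore carried a plasmid and had been electroporated, no muscle had been denervated, and each library came from a whole muscle in which the share of transfected fibers was not analysed here. The comparison of *FRAIL1* with Control muscles asked how each gene responded to forced *FRAIL1* expression.

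HDAC4, HDAC5 and HDAC9 are class IIa histone deacetylases. In innervated muscle, electrical activity keeps HDAC4 and HDAC5 phosphorylated and out of the nucleus, where they would otherwise bind MEF2 transcription factors and repress their targets. After denervation, HDAC4 and HDAC5 accumulate and repress *Dach2*, a corepressor of *Myog*, and myogenin then raises acetylcholine receptor subunits and the ubiquitin ligases of atrophy. HDAC4 also raises *Gadd45a*, a nuclear stress-response gene that promotes fiber atrophy, while *Runx1*, a transcription factor, is strongly induced by denervation and limits further wasting.

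RefSeq promoter windows, the 250 bases before each annotated transcript start (build GRCm38.p6), were read for all 9 genes and gave 14 windows. Each was searched on both strands for 4 motifs. These were a MEF2 motif (CTA and TAG with any 4 bases between them) and an E-box of the kind that myogenin binds (CAGCTG). The others were a RUNX motif (TGTGGT) and an ATF4 composite motif (TGATGNAA). The 4 windows below are those of *Hdac5*, of an internal start of *Hdac9*, and of the 2 starts of *Runx1*. They are shown because *Hdac5* and *Hdac9* encode repressors of MEF2 and a match to this open MEF2 motif lay upstream of both. The *Runx1* windows are shown because *Runx1* alone of the 9 genes passed the main test below, and they held none of the 4 motifs. Capitals mark matches, and all 4 windows read from the minus strand.
Hdac5, chr11:102230173-102230422: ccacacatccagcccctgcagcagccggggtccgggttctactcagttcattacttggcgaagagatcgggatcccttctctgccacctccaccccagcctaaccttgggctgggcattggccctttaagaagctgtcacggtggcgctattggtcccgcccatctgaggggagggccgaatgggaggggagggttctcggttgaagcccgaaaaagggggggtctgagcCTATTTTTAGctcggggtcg
Hdac9 internal start, chr12:34528890-34529139: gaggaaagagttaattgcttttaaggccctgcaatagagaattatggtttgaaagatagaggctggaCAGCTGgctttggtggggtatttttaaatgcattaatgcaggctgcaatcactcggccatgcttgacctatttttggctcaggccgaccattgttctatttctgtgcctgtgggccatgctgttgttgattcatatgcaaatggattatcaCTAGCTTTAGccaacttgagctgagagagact
Runx1 internal start, chr16:92697330-92697579: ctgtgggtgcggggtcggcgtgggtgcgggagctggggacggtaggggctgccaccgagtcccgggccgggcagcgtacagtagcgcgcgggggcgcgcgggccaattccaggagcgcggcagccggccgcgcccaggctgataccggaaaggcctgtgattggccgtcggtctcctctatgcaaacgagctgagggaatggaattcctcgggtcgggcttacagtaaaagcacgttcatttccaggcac
Runx1 first start, chr16:92826075-92826324: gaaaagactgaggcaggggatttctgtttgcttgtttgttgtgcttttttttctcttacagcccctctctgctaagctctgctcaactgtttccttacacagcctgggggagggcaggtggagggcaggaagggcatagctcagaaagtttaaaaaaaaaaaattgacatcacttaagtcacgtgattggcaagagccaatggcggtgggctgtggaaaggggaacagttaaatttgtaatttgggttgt

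In the *Hdac5* window the MEF2 motif began 20 bases before the start, and in the *Hdac9* window it began 32 bases before the start, with an E-box 183 bases before it. Of 32851 promoter windows of the same length in the reference, 3.20% held the MEF2 motif, 13.0% the E-box, 14% the RUNX motif and 3.45% the ATF4 motif. The window of the other *Hdac9* start (chr12:34917096-34917345) held an E-box 89 bases before the start, and 1 of the *Dach2* windows (chrX:113298006-113298255) held a RUNX motif 60 bases before it. The other 10 windows, including those of *Gadd45a*, *Hdac4*, *Mef2a*, *Mef2c* and *Mef2d*, held no match, which says only that these letters were not in the windows read. The 2 *Runx1* windows differed in base composition: GC content was 67.6% with 27 CpG dinucleotides at the internal start and 45.6% with 2 CpG dinucleotides at the first start. The gene-level counts do not separate transcripts from the 2 starts.

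Total counts ran from 44848322 to 60527385 per muscle. Levels are given as CPM (read counts scaled to a common library size, after TMM, edgeR's correction for differences in library composition), and differences as log2 fold change of *FRAIL1* over Control muscles. Of the 15502 genes tested, 974 passed an adjusted p of 0.05 (6.28%), 687 of them higher (4.43%) and 287 lower (1.85%) in *FRAIL1* muscles. All adjusted p-values of edgeR given here come from its quasi-likelihood test with the Benjamini-Hochberg method, over these 15502 genes or, where muscles were left out, over the genes that passed the same filter in those that stayed. Blocking on the mouse gave 2186 genes (14.1%), 1159 higher (7.48%) and 1027 lower (6.62%). *FRAIL1* muscle 5 stood apart from the rest of its group, being the highest or the lowest of the 6 for 27.5% of tested genes each, so results without both muscles of mouse 5 are given where they change a call.

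To compare genes with one another, CPM was divided by the length of each gene's merged exons in kilobases. Merged exons take in every annotated transcript of a gene, and which of them these muscles express was not determined. The ranks and family shares given here depend on these lengths. In Control muscles *Mef2c* had the highest level, 30.9 ± 3.98 CPM per kb (SD, n = 6), followed by *Mef2d* at 26.0 ± 0.786, *Gadd45a* at 18.4 ± 3.64 and *Hdac5* at 9.63 ± 0.430. Well below these came *Mef2a* at 2.30 ± 0.411, *Runx1* at 0.868 ± 0.220, *Hdac4* at 0.559 ± 0.0405, *Hdac9* at 0.454 ± 0.0584 and *Dach2* at 0.282 ± 0.103 CPM per kb. Neighbours whose ranges overlapped in Control muscles, and which were therefore not separated by their spread, were *Mef2c* and *Mef2d*, *Runx1* and *Hdac4*, *Hdac4* and *Hdac9*, and *Hdac9* and *Dach2*. In *FRAIL1* muscles the order was the same except that *Gadd45a* (28.2 ± 15.8 CPM per kb) lay above *Mef2d* (23.0 ± 1.82), with overlapping ranges.

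**Figure D1:**
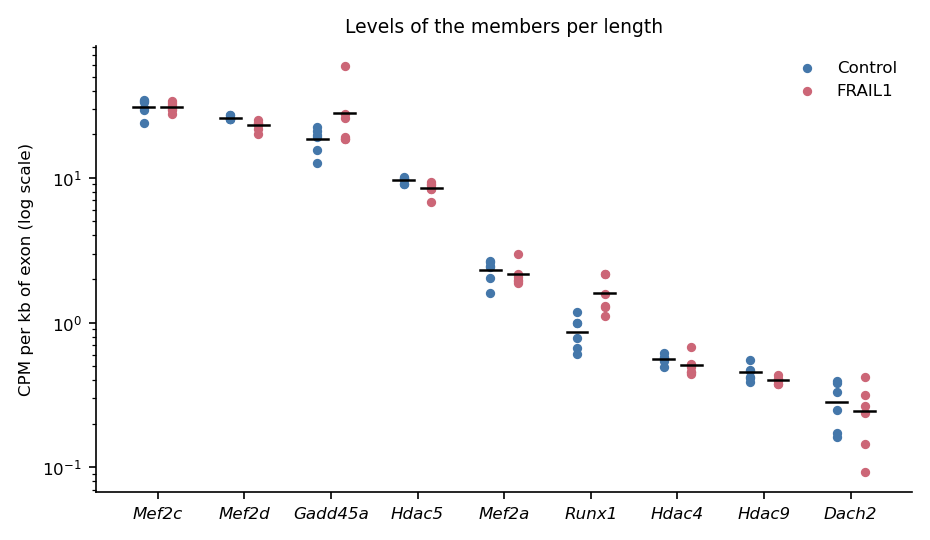
Levels of the 9 genes in CPM per kb of merged exons on a log axis, 1 point per muscle, 6 Control and 6 *FRAIL1* muscles, with a bar at each group mean. *Mef2c*, *Mef2d* and *Gadd45a* lie at the top and *Dach2* at the bottom in both groups, and *Runx1* points of *FRAIL1* muscles (1.12 to 2.18) lie mostly above those of Control muscles (0.604 to 1.18).

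*Runx1* (Gene ID 12394, chr16:92601466-92826074, minus strand) was the only one of the 9 genes that passed the test, 1 higher and 0 lower, beside 6.28% of all tested genes, and 7 of the 9 had a log2 fold change below 0, beside 48.4% of all. Its level was 11.9, 9.39, 11.9, 14.1, 8.04 and 7.26 CPM in Control muscles 1 to 6 and 15.4, 26.2, 13.4, 15.8, 26.1 and 19.1 CPM in *FRAIL1* muscles 1 to 6. The groups overlapped by 1 pair of values, since Control muscle 4 (14.1 CPM) lay above *FRAIL1* muscle 3 (13.4 CPM). The mean was 10.4 ± 2.64 CPM in Control and 19.3 ± 5.59 CPM in *FRAIL1* muscles (SD, n = 6). This was a 1.85-fold rise, or 0.89 on the log2 scale (SE 0.203, 95% confidence interval 0.45 to 1.33), and edgeR's adjusted p was 0.0277.

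Within mice, *Runx1* was higher in the *FRAIL1* muscle in 6 of 6, but the size of the difference was uneven. The ratio was 2.79, 3.25 and 2.62 in mice 2, 5 and 6, and 1.30, 1.13 and 1.11 in mice 1, 3 and 4. The 3 mice with the larger ratios had the 3 lowest Control levels (9.39, 8.04 and 7.26 CPM). They also had the 3 highest *FRAIL1* levels (26.2, 26.1 and 19.1 CPM). This grouping was seen in the values and not tested, and the Control level divides the ratio, so a low one raises it. With the mouse as a block, edgeR's adjusted p was 0.0678. The call was also lost when Control muscle 2 (adjusted p = 0.0612), Control muscle 5 (0.0557), Control muscle 6 (0.0505) or *FRAIL1* muscle 5 (0.0503) was left out, and without both muscles of mouse 5 it was 0.0873 in edgeR. Over the 23 alternatives, *Runx1* passed in 16, its adjusted p ran from 4.07e-04 to 0.202, and its log2 fold change was above 0 in each.

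**Figure D2:**
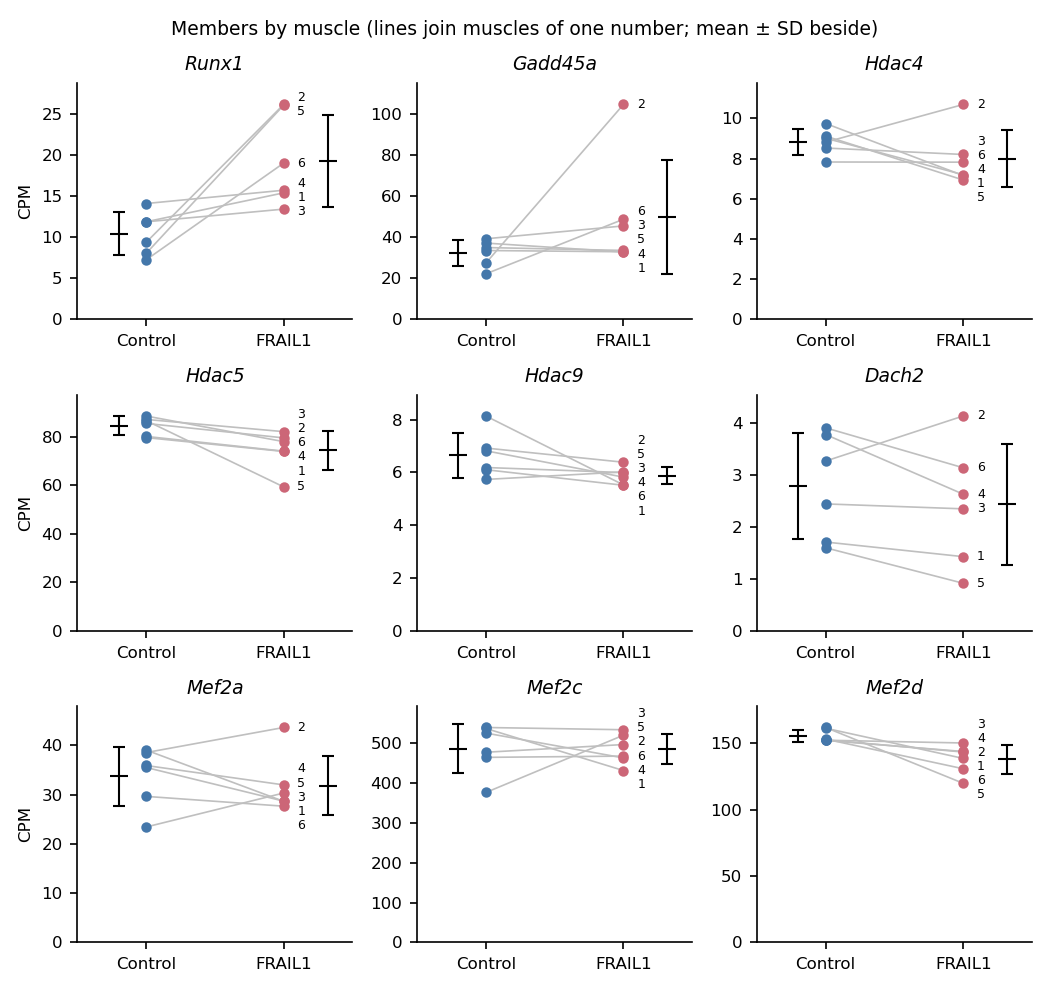
CPM of each of the 9 genes in the 6 Control and 6 *FRAIL1* muscles, with lines joining muscles that share a number, *FRAIL1* muscles numbered 1 to 6, and bars giving the mean ± SD beside each group. *Runx1* rises along all 6 lines, *Gadd45a* stands at 104.6 CPM in *FRAIL1* muscle 2 alone, and *Hdac5* and *Mef2d* fall along all 6 lines.

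The genes whose levels moved most like *Runx1* were sought over all 12 muscles, after the group means had been removed, among 13009 genes with a mean of at least 1 CPM. They were *Napb* (Pearson r = 0.967, Spearman rho = 0.951), *Ankrd10* (r = 0.940, rho = 0.909) and *Washc4* (r = 0.935, rho = 0.944). Without the 2 muscles farthest from the median of *Runx1*, *FRAIL1* muscles 2 and 5, r was 0.955, 0.930 and 0.910. These are the highest of 13009 values over muscles that share library depth and composition, so they are given as a description. Of the 3, *Ankrd10* also rose, by 0.56 on the log2 scale (adjusted p = 0.0124), while *Napb* (0.14, adjusted p = 0.323) and *Washc4* (0.05, adjusted p = 0.749) did not pass in edgeR. Among the genes of the RUNX family and its partner, 0 of 3 passed, 0 of 3 had an unadjusted p under 0.05, and 0 passed in DESeq2 or limma voom. *Runx2* had a log2 fold change of 0.29, *Runx3* of 0.24 and *Cbfb*, which encodes the subunit that RUNX proteins bind DNA with, of 0.08.

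*Gadd45a* (Gene ID 13197, chr6:67035096-67037407, minus strand) had the widest spread for its mean of the 9 genes in *FRAIL1* muscles (coefficient of variation 55.9%), and 1 muscle set most of its mean difference. Its level was 37.2, 27.4, 39.2, 33.5, 35.0 and 22.2 CPM in Control muscles 1 to 6 and 32.8, 104.6, 45.5, 32.9, 33.6 and 48.7 CPM in *FRAIL1* muscles 1 to 6. *FRAIL1* muscle 2 lay far above the rest, 3 of the other 5 *FRAIL1* muscles lay within the Control range and 2 above it, and the groups overlapped. The mean was 32.4 ± 6.43 CPM in Control and 49.7 ± 27.8 CPM in *FRAIL1* muscles (SD, n = 6), giving a log2 change of 0.62 (SE 0.289, 95% confidence interval -0.01 to 1.25) that did not pass edgeR's test (adjusted p = 0.188).

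Within mice, *Gadd45a* was higher in the *FRAIL1* muscle in 3 and lower in 3. Without *FRAIL1* muscle 2 the mean of the other 5 was 38.7 ± 7.77 CPM (SD, n = 5) and the log2 fold change was 0.25 (edgeR's adjusted p = 0.303). *Gadd45a* passed in 0 of the 23 alternatives, which include DESeq2 and limma voom, although its unadjusted p was 0.0541. In the annotation, 19.1% of its exon length is overlapped by *E230016M11Rik* on the opposite strand, and since the strand setting of the counting was not stated, reads of the pair cannot be told apart there. Of 6 relatives and partners of GADD45, 0 were higher and 2 lower in edgeR, beside 4.43% and 1.85% of all tested genes. *Atf4* is the stress-response factor that activates *Gadd45a* in muscle. It fell from 141 ± 10.4 to 112 ± 11.0 CPM (log2 fold change -0.33, adjusted p = 0.0203 in edgeR) with groups that did not overlap. *Map3k4*, a kinase that GADD45 proteins activate, fell from 57.7 ± 3.37 to 45.4 ± 7.20 CPM (-0.35, edgeR's adjusted p = 0.0424). *Atf4* passed in 12 of the 12 fits that left out 1 muscle and *Map3k4* in 3 of them, its highest adjusted p being 0.0878 without Control muscle 3.

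The 3 class IIa deacetylases measured as members all had lower means in *FRAIL1* muscles, by differences of similar size, and 0 of 3 passed in edgeR, DESeq2 or limma voom, with 1 at an unadjusted p under 0.05 in edgeR. *Hdac5* (Gene ID 15184, chr11:102195747-102230172, minus strand) was at 79.6, 85.4, 87.1, 80.1, 86.6 and 88.5 CPM in Control muscles 1 to 6 and at 73.9, 79.5, 82.1, 74.0, 59.3 and 77.9 CPM in *FRAIL1* muscles 1 to 6. All 6 mice had the lower value on the *FRAIL1* side, while the groups overlapped and *FRAIL1* muscle 5 lay below all others. Its mean was 84.6 ± 3.78 against 74.4 ± 8.06 CPM (SD, n = 6), giving a log2 change of -0.18 (SE 0.0714, 95% confidence interval -0.34 to -0.03). With an unadjusted p of 0.0210 it was, with *Runx1* and *Mef2d*, 1 of 3 of the 9 genes under 0.05, beside 27.7% of all tested genes, and its adjusted p was 0.115, between 0.0561 and 0.194 over the 23 alternatives and so above the threshold in each.

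*Hdac4* (Gene ID 208727, chr1:91928779-92195702, minus strand) is the class IIa member most tied to denervation. Its lowest, median and highest levels were 7.83, 8.92 and 9.75 CPM in Control and 6.94, 7.51 and 10.7 CPM in *FRAIL1* muscles. It was lower in 5 of 6 mice, and the exception was mouse 2, whose *FRAIL1* muscle held the highest value of all 12. The log2 fold change was -0.14 (SE 0.105, 95% confidence interval -0.37 to 0.08, edgeR's adjusted p = 0.394), and -0.25 without *FRAIL1* muscle 2 (adjusted p = 0.0680). Antisense gene *Gm26720* overlaps 22.4% of the exon length of *Hdac4*, with the same limit on telling the strands apart.

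*Hdac9* (Gene ID 79221, chr12:34047580-34917095, minus strand), a repressor of MEF2 that is itself a MEF2 target, ran from 5.74 through a median of 6.50 to 8.14 CPM in Control and from 5.52 through 5.91 to 6.39 CPM in *FRAIL1* muscles. It was lower in 5 of 6 mice and the groups overlapped. Its log2 fold change was -0.18 (SE 0.0943, 95% confidence interval -0.38 to 0.02, edgeR's adjusted p = 0.232). The intervals of *Hdac4*, *Hdac5* and *Hdac9* all exclude a rise of *Runx1*'s size.

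The make-up of the class IIa family, counted as shares of its summed CPM per kb with *Hdac7* included, was led by *Hdac5* in both groups. *Hdac5* held 62.1 ± 1.37% in Control and 59.6 ± 3.48% in *FRAIL1* muscles, and *Hdac7*, a family member known mainly from endothelium and thymocytes, held 31.3 ± 1.59% and 34.1 ± 3.45% (SD, n = 6). *Hdac4* held 3.62 ± 0.439% and 3.55 ± 0.503%, and *Hdac9* held 2.92 ± 0.319% and 2.83 ± 0.219%. The ranges of all 4 shares overlapped between groups. Of the 8 other histone deacetylases, 0 passed edgeR's test, 1 had an unadjusted p under 0.05, and 0 passed in DESeq2 or limma voom. *Hdac2*, a class I enzyme with the highest mean of the 8 over both groups, was at 60.8 ± 2.77 and 59.0 ± 2.76 CPM (edgeR's adjusted p = 0.613). The 1 gene under 0.05 was *Hdac3*, the catalytic partner that class IIa proteins recruit, at 61.0 ± 1.86 against 55.7 ± 4.05 CPM (log2 fold change -0.13, edgeR's adjusted p = 0.143).

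Class IIa deacetylases are moved by kinases, 14-3-3 proteins and corepressors, and 19 such genes were tested. In edgeR 1 was higher and 0 lower, beside 4.43% and 1.85% of all tested genes. A further 9 had an unadjusted p under 0.05, so 10 of 19 did, beside 27.7% of all. *Camk2b*, a subunit of the calcium-dependent kinase CaMKII, which binds and phosphorylates HDAC4, rose from 190 ± 12.2 to 239 ± 32.3 CPM (log2 fold change 0.34, edgeR's adjusted p = 0.0297), with groups that did not overlap. It passed in 6 of the 12 fits that left out 1 muscle, its highest adjusted p being 0.0667 without Control muscle 3. *Camk2a* (504 ± 23.5 against 398 ± 73.0 CPM, log2 fold change -0.34, adjusted p = 0.0601) and *Camk2g* (226 ± 10.4 against 181 ± 29.3 CPM, -0.32, adjusted p = 0.0569) did not pass in edgeR with the group alone. With the mouse as a block both passed as lower in edgeR (0.0226 and 0.0237). In that fit 2 genes of this group were higher and 2 lower, beside 7.48% and 6.62% of all tested genes. Without both muscles of mouse 5, *Camk2b* and *Camk2g* passed in edgeR with the group alone and *Camk2a* did not. *Camk2a* passed there with the mouse as a block.

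*Dach2* (Gene ID 93837, chrX:113297496-113836386, plus strand), the corepressor between HDAC4 and *Myog*, had the lowest level of the 9 genes, with 49 to 240 counts per muscle. Its values were 1.71, 3.27, 2.44, 3.78, 1.60 and 3.90 CPM in Control muscles 1 to 6 and 1.43, 4.13, 2.35, 2.63, 0.916 and 3.14 CPM in *FRAIL1* muscles 1 to 6. Mice differed more than groups did: mice 1 and 5 were lowest and mice 2, 4 and 6 highest in both groups. *Dach2* was lower in the *FRAIL1* muscle in 5 of 6 mice, but its log2 fold change was -0.19 (SE 0.333, 95% confidence interval -0.91 to 0.52, edgeR's adjusted p = 0.743). With the mouse as a block the SE was 0.156, the log2 fold change -0.25 and the adjusted p 0.302. Without the block, the interval left room for a level between 0.532 and 1.44 times that of Control muscles. Of 9 relatives and partners of *Dach2*, 0 passed edgeR's test, 2 had an unadjusted p under 0.05, and 1 passed in each of DESeq2, limma voom and edgeR with the mouse as a block.

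Among MEF2 genes, *Mef2d* was the one whose groups did not overlap. *Mef2d* (Gene ID 17261, chr3:88141941-88172091, plus strand) was at 161.4, 152.6, 152.3, 152.2, 161.9 and 153.2 CPM in Control muscles 1 to 6 and at 138.6, 143.5, 150.3, 143.8, 119.9 and 130.8 CPM in *FRAIL1* muscles 1 to 6. Every *FRAIL1* value lay below every Control value, and *Mef2d* was lower in 6 of 6 mice. It was the only one of the 9 genes with this separation, beside 1.77% of tested genes separated in that direction, 3.12% in the other and 4.88% in either. The mean was 156 ± 4.70 in Control and 138 ± 10.9 CPM in *FRAIL1* muscles (SD, n = 6), giving a log2 change of -0.18 (SE 0.0598, 95% confidence interval -0.30 to -0.05), and edgeR's adjusted p of 0.0808 did not pass.

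The separation of *Mef2d* came with a narrow spread in Control muscles, where the coefficient of variation was 3.02%, the lowest of the 9 genes. Its adjusted p ran from 0.0294 to 0.147 over the 23 alternatives and passed in 4, namely without *FRAIL1* muscle 3 (0.0418 in edgeR), in DESeq2 (0.0294), in DESeq2 with blocking on the mouse (0.0469), and in limma voom (0.0487). Counting by non-overlap, 2 of the 9 genes were separated without Control muscle 4 and 3 without *FRAIL1* muscle 3. The overlap of *Runx1* was between these 2 muscles, so leaving out either had to end it. The share of all tested genes was not counted for these smaller sets. Gene *1700113A16Rik* on the opposite strand overlaps 8.87% of the exon length of *Mef2d*.

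*Mef2c* (Gene ID 17260, chr13:83504017-83667079, plus strand), the MEF2 gene with the highest level, differed least between groups. Its lowest, median and highest levels were 376, 501 and 539 CPM in Control and 431, 482 and 533 CPM in *FRAIL1* muscles, with 3 mice higher and 3 lower. The log2 fold change was -0.00 (SE 0.0888, 95% confidence interval -0.19 to 0.19, edgeR's adjusted p = 0.984), its sign changed in 8 of the 23 alternatives, and the interval leaves room for a change of up to 1.14-fold in either direction. *Mef2a* (Gene ID 17258, chr7:67231163-67376456, minus strand) ran from 23.4 through a median of 35.7 to 39.1 CPM in Control and from 27.7 through 29.5 to 43.7 CPM in *FRAIL1* muscles. The top value came from *FRAIL1* muscle 2, the groups overlapped, and the log2 fold change was -0.08 (SE 0.135, 95% confidence interval -0.37 to 0.21, edgeR's adjusted p = 0.730). As shares of the summed CPM per kb of the 3 genes, *Mef2c* held 52.1 ± 3.49% in Control and 55.0 ± 2.77% in *FRAIL1* muscles, *Mef2d* 44.1 ± 3.87% and 41.1 ± 2.69%, and *Mef2a* 3.85 ± 0.510% and 3.86 ± 0.643% (SD, n = 6). The ranges of the 3 shares overlapped between groups. These shares rest on merged exons of 15715 bases for *Mef2c* and 5985 for *Mef2d*. In CPM, not divided by length, the Control means were 486 and 156.

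**Figure D3:**
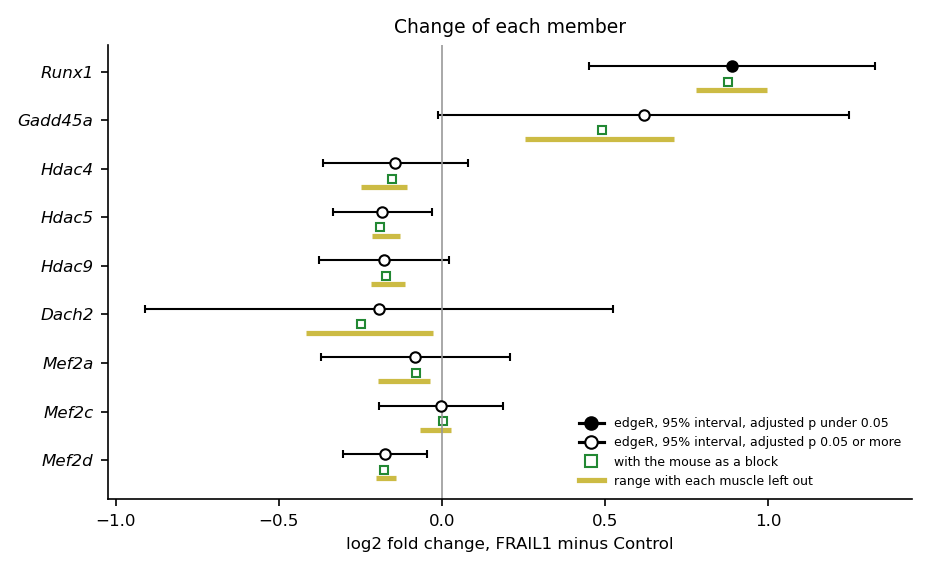
Log2 fold change of *FRAIL1* over Control muscles for the 9 genes, circles with 95% confidence intervals from edgeR (filled where adjusted p is under 0.05), 6 muscles per group, with squares for the fit blocked on the mouse and thick lines for the range when each muscle was left out in turn. The interval of *Runx1* (0.45 to 1.33) lies above 0, those of *Hdac5* and *Mef2d* lie below 0 with adjusted p of 0.115 and 0.0808, and the others cross 0.

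MEF2 proteins work with coactivators and upstream phosphatases and kinases, of which 16 of 17 were tested (*Mef2b* was not). In edgeR 0 were higher and 2 lower, beside 4.43% and 1.85% of all tested genes. *Ep300*, a histone acetyltransferase, fell from 36.9 ± 3.18 to 30.5 ± 2.74 CPM (log2 fold change -0.27, adjusted p = 0.0384). *Mapk14*, the p38 kinase that phosphorylates MEF2 proteins, fell from 186 ± 15.3 to 148 ± 18.9 CPM (-0.33, adjusted p = 0.0381, both in edgeR). Each passed in 4 of the 12 fits that left out 1 muscle, with highest adjusted p of 0.0882 and 0.0860 in edgeR, both without Control muscle 1. Without both muscles of mouse 5, *Ep300* and *Ppp3cb* passed in edgeR with the group alone and *Mapk14* did not. *Mapk14* passed there with the mouse as a block. With the mouse as a block 1 gene of this group was higher and 4 were lower, beside 7.48% and 6.62% of all tested genes. *Ppp3cb*, a catalytic subunit of calcineurin with the highest mean of the group, was at 279 ± 29.6 and 219 ± 37.4 CPM (log2 fold change -0.35, edgeR's adjusted p = 0.0609, and 0.0118 with the mouse as a block).

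Of 12 MEF2 target genes, 1 was higher and 1 lower in edgeR, beside 4.43% and 1.85% of all tested genes. Their median log2 fold change was -0.17 beside 0.01 over all tested genes. *Hspb7*, a small heat shock protein of muscle, rose from 355 ± 78.4 to 563 ± 57.1 CPM (log2 fold change 0.67, adjusted p = 0.0145 in edgeR) with groups that did not overlap, in 12 of the 12 fits that left out 1 muscle. *Ckm*, muscle creatine kinase, fell from 12444 ± 964 to 9556 ± 1615 CPM (-0.38, adjusted p = 0.0482 in edgeR), in 3 of the 12 fits, its highest adjusted p being 0.0912 without Control muscle 2. Without both muscles of mouse 5, *Ckm* did not pass in edgeR with the group alone but passed with the mouse as a block. It also stood among the myofiber markers.

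The 17 genes of the denervation response that lie downstream of these regulators were compared beside them. In edgeR 11 were higher and 0 lower, beside 4.43% higher among all tested genes, with a median log2 fold change of 0.99. Without both muscles of mouse 5, 9 of the 17 passed. The list was chosen with earlier results of these data known, so these counts describe it and do not test an enrichment. The 5 with the smallest p were *Chrna1*, *Ncam1*, *Chrng*, *Chrnd* and *Chrnb1*. *Myog*, the gene that *Dach2* represses, rose from 11.8 ± 2.01 to 32.4 ± 16.1 CPM (log2 fold change 1.46, adjusted p = 0.0124 in edgeR). Of the acetylcholine receptor subunits, *Chrna1* rose from 29.5 ± 3.56 to 81.0 ± 19.2 CPM (1.46, adjusted p = 3.39e-04) and the embryonic subunit *Chrng* from 3.51 ± 1.14 to 12.9 ± 3.56 CPM (1.88, adjusted p = 0.00160), both in edgeR. *Chrnd* rose by 1.22 (adjusted p = 0.00209) and *Chrnb1* by 0.73 (adjusted p = 0.00391) on the log2 scale in edgeR. *Ncam1*, an adhesion molecule that spreads over denervated fibers, rose from 16.8 ± 1.55 to 42.9 ± 12.6 CPM (1.35, edgeR's adjusted p = 0.00128). The atrophy ligases had lower means and did not pass in edgeR: *Trim63* was at 293 ± 35.0 and 236 ± 74.6 CPM (log2 fold change -0.31, adjusted p = 0.274) and *Fbxo32* at 238 ± 51.2 and 169 ± 87.9 CPM (-0.50, adjusted p = 0.313). *FRAIL1* muscle 2 held the highest value of all for both (364 and 324 CPM), and without it the log2 fold changes were -0.48 for *Trim63* (edgeR's adjusted p = 0.0433) and -0.79 for *Fbxo32* (0.0628). Both also passed as lower in DESeq2 with the mouse as a block (0.00730 and 0.0318), and in none of the other alternatives. So *Runx1*, itself a denervation-response gene, and 11 of these 17 were higher, while 0 of the 8 other members passed in edgeR in either direction (2 had an unadjusted p under 0.05, and 1 passed in each of DESeq2 and limma voom).

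**Figure D4:**
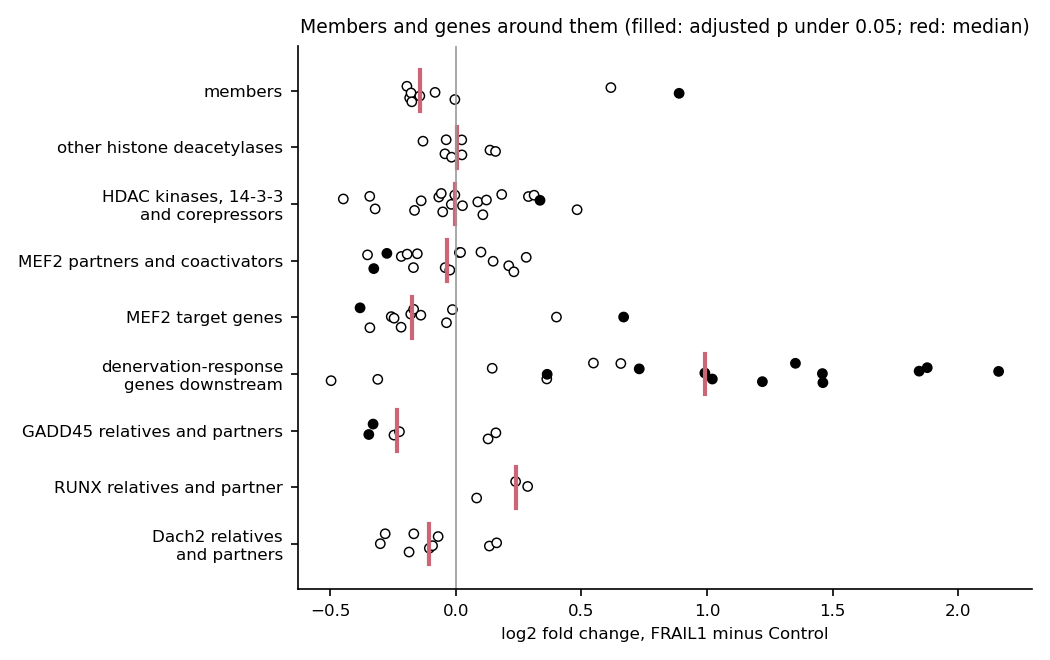
Log2 fold change of *FRAIL1* over Control muscles for the 9 members and for every tested gene of the 8 gene groups around them, 1 point per gene, filled where adjusted p was under 0.05 in edgeR, with a red bar at the median of each group. The downstream denervation-response genes lie furthest to the right, with 11 of 17 filled, and the other groups hold 0 to 2 filled points each.

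By muscle, the 9 genes did not rank the *FRAIL1* muscles in one order. *FRAIL1* muscle 2 was the highest of its group for 6 of 9 (*Runx1*, *Gadd45a*, *Hdac4*, *Hdac9*, *Dach2* and *Mef2a*), beside 15.4% of tested genes, and *FRAIL1* muscle 5 was the lowest for 4 (*Hdac4*, *Hdac5*, *Dach2* and *Mef2d*), beside 27.5%. For *Runx1*, those 2 muscles lay together at the top. The pair of members most alike over the 12 muscles, of 36 pairs compared with the group means removed, was *Gadd45a* and *Hdac4* (Pearson r = 0.934, Spearman rho = 0.741), a pair named after its values were seen. Without *FRAIL1* muscle 2, r was 0.822, and without the 2 muscles farthest from the median of *Gadd45a*, Control muscle 6 and *FRAIL1* muscle 2, it was 0.784.

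In whole muscle, fewer cells of a type and less RNA per cell cannot be told apart, and *Runx1* is expressed in blood cells and activated satellite cells as well as in fibers. The summed level of 7 satellite cell and regenerating fiber markers was 194 to 246 CPM in Control and 351 to 1564 CPM in *FRAIL1* muscles, without overlap, and 3 of the 7 were higher in edgeR, namely *Myog*, *Myh3* and *Myh8*, which also stood among the denervation-response genes. With the mouse as a block 6 of the 7 were higher, adding *Pax7*, *Myf5* and *Myod1*, which mark satellite cells and myoblasts, and 6 passed in DESeq2 and 3 in limma voom. That sum was highest in *FRAIL1* muscle 5 (1564 CPM), where *Runx1* was at 26.1 CPM, but only 359 CPM in *FRAIL1* muscle 2, where *Runx1* was at 26.2 CPM. The 10 macrophage markers summed to 239 to 379 CPM in Control and 294 to 755 CPM in *FRAIL1* muscles, the highest being *FRAIL1* muscle 1, where *Runx1* was at 15.4 CPM. Of these 10, 0 passed in edgeR with the group alone and 5 were higher with the mouse as a block, 6 had an unadjusted p under 0.05 with the group alone, and 5 passed in DESeq2 and 3 in limma voom.

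Among markers of other cell types, 7 fibroblast markers summed to 1023 to 1831 CPM in Control and 1931 to 4963 CPM in *FRAIL1* muscles, without overlap, again highest in *FRAIL1* muscle 5, and 0 of 7 passed in edgeR with or without the mouse as a block, with 4 at an unadjusted p under 0.05 and 2 passing in each of DESeq2 and limma voom. The 8 myofiber markers summed to 173895 to 203129 CPM in Control and 132562 to 186399 CPM in *FRAIL1* muscles, and made up the largest of the 7 marker sums in every muscle. In edgeR 1 myofiber marker was lower (*Ckm*), and 2 with the mouse as a block. The log2 fold change was below 0 for 6 of the 8 and above 0 for 2. An unadjusted p under 0.05 in edgeR was found for 4, and 4 passed in each of DESeq2 and limma voom. The 8 endothelial markers summed to 434 to 510 and 347 to 449 CPM with 1 lower in edgeR (*Tek*) and 2 with the mouse as a block. All 8 had a log2 fold change below 0, 4 had an unadjusted p under 0.05 in edgeR, and 2 passed in each of DESeq2 and limma voom. The 6 Schwann cell markers, at 61.1 to 115 and 47.9 to 80.9 CPM, and the 8 lymphocyte markers (7 of them tested), at 8.41 to 18.1 and 8.36 to 19.4 CPM, overlapped between groups. In each list 0 passed in edgeR with the group alone, and 1 marker was higher with the mouse as a block. Of the Schwann cell markers, 5 had a log2 fold change below 0 and 1 above. Among them 2 had an unadjusted p under 0.05 in edgeR, 2 passed in DESeq2 and 0 in limma voom. Of the lymphocyte markers tested, 4 were below 0 and 3 above, and 0 passed in DESeq2 or limma voom. None of the markers was at 0 in all muscles, and the part of these cell types in the values of *Runx1*, *Hdac5* and *Mef2d* was not tested.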

How the data were processed

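RNA was measured in 12 muscles as 6 pairs. The deposited values are raw read counts per gene, made by the authors from paired-end reads with, per the labels, Trimmomatic, STAR 2.7.8a and featureCounts 2.0.1 on mm10; the annotation and strand setting are not given in the sources used here. NCBI Gene IDs were matched to symbols for 25275 of 27179 genes, and the others held 0.280% of counts. From these counts, edgeR 4.0.16 (R 4.3.3) gave TMM factors (0.935 to 0.983 in Control and 0.965 to 1.19 in *FRAIL1* muscles), CPM, and the quasi-likelihood test (robust, filterByExpr, group only, Benjamini-Hochberg over 15502 genes, threshold 0.05). Alternatives were the mouse as a block, other scalings and filters, leaving out muscles, DESeq2 1.42.0 and voom with quality weights in limma 3.58.1. The scripts were tested on simulated data.

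Same-numbered muscles were taken as 1 mouse, since the series' design gives both TAs of each mouse. The labels do not say that the number marks the mouse. Deviations from the group means correlated at 0.254, 0.162, 0.282, 0.263, 0.0547 and 0.185 for numbers 1 to 6. The mean was 0.200 for the same number and -0.0400 for different numbers. Deviations within a group sum to 0, so the second mean follows from the first and is no separate evidence. Muscles of every number except 5 were most alike within their number.

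The members and the 15 gene lists were chosen with earlier results of these data known. Named genes are the members, the genes of each list past the threshold up to 5 by p and the one with the highest mean (cell-type lists aside), and the 3 genes most like a member that passed; *Hdac3*, *Camk2g*, *Myog*, *Fbxo32*, *Runx2*, *Runx3* and the markers were named after their values were seen. A gene that this rule names is not reported here. Positions and exon lengths are from the GRCm38.p6 annotation. Members other than *Dach2* had at least 244 counts per muscle.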

Additional observations from a re-analysis of the deposited data

Results flagged for a closer look

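A muscle far from the other 5 of its group was looked for in each of the 9 genes and 2 groups, 18 tests in all, of which chance would mark about 1 in 20. It was found 4 times, each time in *FRAIL1* muscles. *FRAIL1* muscle 2 lay above the rest for *Gadd45a* at 104.6 CPM, for *Hdac4* at 10.7 CPM and for *Mef2a* at 43.7 CPM. *FRAIL1* muscle 5 lay below the rest for *Hdac5* at 59.3 CPM. The gap to the nearest muscle was 0.778, 0.662, 0.729 and 0.641 of the group's range, in that order.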

How the results depend on the processing

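Of 23 alternatives, all genes called numbered 974 as reported and 2186 with the mouse as a block, 2305 with that block and without both muscles numbered 5, 2171 in DESeq2, 2827 in DESeq2 with the block and 1836 in limma voom, and 364 to 2110 when 1 muscle was left out, the lowest without *FRAIL1* muscle 1 and the highest without *FRAIL1* muscle 3. Of the 9 genes, 1 was called as reported, 0 with the block and 0 without both muscles numbered 5, with or without the block, 2 in DESeq2 with and without the block and in limma voom, and 0 to 2 when 1 muscle was left out. Groups did not overlap for 1 to 3 of the 9 genes. With all muscles kept this was 1, beside 4.88% of tested genes, and no such share was counted where muscles were left out. The block changed no call of a member other than *Runx1*. The log2 fold change of *Mef2c* turned above 0 with the block (0.0029), under upper-quartile scaling (0.0032), and without Control muscles 1 (0.0259), 3 (0.0275) or 4 (0.0191) or *FRAIL1* muscles 1 (0.0258), 4 (0.0083) or 6 (0.0035), its lowest value among fits without 1 muscle was -0.0681, without Control muscle 5, and the cause of these changes was not tested. *Gadd45a*, *Hdac4*, *Hdac5*, *Hdac9*, *Dach2* and *Mef2a* kept their direction and stayed above the threshold in all 23 alternatives. Without the block the SE was largest for *Dach2* and *Gadd45a*, and with it for *Gadd45a* and *Runx1*, and the number of muscles, 6 per group, limits all 9.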
